A study of Mus musculus with 3 samples.

Results

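The glutathione, thioredoxin and peroxidase systems are the enzymes that keep a cell's thiols reduced, remove peroxides and couple glutathione to drugs and lipids. They were taken here as all probes whose platform gene symbol begins with Gsta, Gstm, Gstp, Gstt, Gstk, Gsto, Gstz, Mgst, Gpx, Prdx, Txn or Glrx, together with Gclc, Gclm, Gss, Gsr, Sod1, Sod2, Cat, Hmox1, Nqo1, Srxn1, Nfe2l2 and Keap1. The rule found 78 of 26423 probes, which stood for 69 of the 17778 gene symbols on the arrays, 6 of them with more than 1 probe, and no probe carried the symbol Sod1. The arrays came from cultured mouse myeloid leukaemia cells of strain BXH-2, with bone marrow given as the tissue. The sensitive group was 2 arrays of the line B117P. The resistant group was 1 array of B117HS, a line obtained from B117P by stepwise exposure to cytarabine (Ara-C) for about 10 weeks, with an IC50 about 10 times that of B117P. Cytarabine is a nucleoside analogue that blocks DNA synthesis. Whether B117HS is a clone, and whether the drug was present at harvest, was not stated in the labels. Nor do they say whether the pair of sensitive arrays had separate cultures as their source. The p-values therefore rest on the spread of that pair alone, possibly a technical one, and treat the single resistant array as equally variable.

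Glutathione is made from glutamate, cysteine and glycine in 2 steps, by glutamate-cysteine ligase (Gclc and Gclm) and glutathione synthetase (Gss). Glutathione peroxidases and transferases spend it, and glutathione reductase (Gsr) restores it with NADPH. Thioredoxins, kept reduced by thioredoxin reductases, do the same service for peroxiredoxins. The transcription factor NRF2 (Nfe2l2), held in check by KEAP1, switches many of these genes on under oxidative stress through a DNA element called the antioxidant response element.

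The resistant array was dim as a whole. Its median intensity was 24.9 units, against 58.4 and 72.5 on the sensitive arrays, and over the 6019 probes that reached 500 units in both B117P hybridisations its median log2 ratio to the sensitive mean was -0.88. These probes were chosen by brightness on the sensitive arrays alone. Probes bright only on the resistant array were left out, which can push this ratio down. Differences are therefore given on the log2(intensity + 50) scale as deposited and, beside it, after each array was divided by its shift on these bright probes. A probe was called when limma's Benjamini-Hochberg adjusted p over all 26423 probes was under 0.05 and its log2 value differed by at least 1 from both sensitive arrays, in 1 direction. "Rose" and "fell" are used only of probes called on both scales. Scaling raises the resistant array, so nearly all probes called higher as deposited were also called higher after it. The second scale is thus a check on "fell" but hardly on "rose". The offset of 50 makes differences of dim probes smaller than their intensity ratios. Since each array measured RNA from many cells, fewer cells with a transcript and less of it per cell cannot be told apart. The median difference of all probes was -0.27 as deposited and -0.015 after scaling. The leukocyte gene Ptprc (8096, 8219 and 6725 units on its brighter probe, in the order sensitive 1, sensitive 2, resistant) and the myeloid peroxidase gene Mpo (76710, 84138 and 80905) were bright on every array. Of 6 myeloid marker genes Spi1 fell and Csf3r and Itgam were lower as deposited only, and Cd33 read at most 73.9 units. Of the 4 erythroid list genes measured, Klf1, Alas2 and Epor stayed at or below 54.7 units on every array. The fourth, the transferrin receptor gene Tfrc, which dividing cells of many kinds also express, read 7586, 8657 and 17066 units and was called higher only after scaling (1.07 as deposited, 1.95 scaled). The fibroblast genes Col1a1, Col1a2 and Dcn stayed at or below 41.0, while Pdgfra went from 2.48 and 3.96 to 112. The B cell gene Cd79a read 288, 257 and 94.9 units and the T cell gene Cd3e 272, 223 and 90.2. The epithelial gene Krt18 read 112, 102 and 145. The other genes measured from these lists, Ms4a1, Cd3g, Cd4, Cd8a, Cdh1, Epcam and Krt8, stayed at or below 38.3.

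Among the 78 probes, 3 membrane glutathione transferase genes moved furthest: Mgst1 and Mgst2 rose and Mgst3 fell. Txndc12, Txndc15 and 1 probe of Nme8 also rose, and Gstt1, Gstt2, Prdx1 and Txnl4a also fell. In all, 5 probes rose and 6 fell, the latter from 5 genes. As deposited, 5 member probes (6.41%) were called higher and 15 (19.2%) lower, against 4.36% and 15.5% of all probes. After scaling, 10 (12.8%) were called higher and 6 (7.69%) lower, against 9.42% and 6.57%, so the share of higher calls among the members called went from 25% to 62.5%. Over all probes that share went from 21.9% to 58.9%. On both scales together the member shares were 6.41% and 7.69%, against 4.36% and 6.37%. Members were brighter than the array as a whole, so the same shares were taken over probes with a mean of at least 50 units. There 7.55% of 53 member probes were called higher and 28.3% lower as deposited, beside 7.66% and 29.2% of 13814 probes, and on both scales 7.55% and 11.3% beside 7.64% and 11.8%. Above that minimum the member shares therefore lay close to the background, and the members are described below one by one. The median member difference was -0.45 as deposited and -0.07 after scaling. On the deposited scale the resistant array read below both sensitive arrays for 55 member probes (67.1% of all probes did) and above both for 16 (20.9% of all probes).

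**Figure D1:**
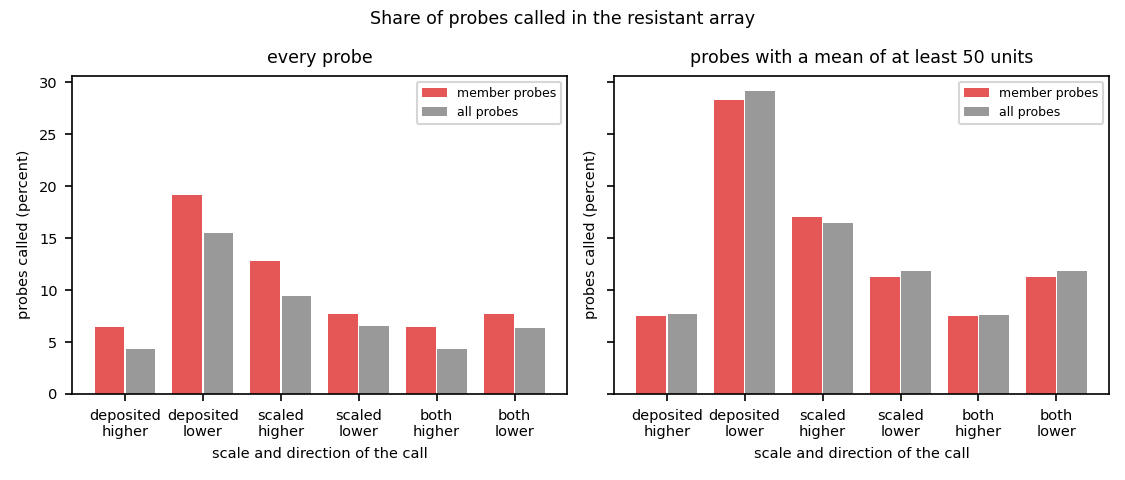
Percent of probes called higher or lower in the resistant array, for the member probes (red) and all probes (grey), as deposited, after scaling on bright probes and on both scales; the left panel takes every probe and the right panel those with a mean of at least 50 units. In the right panel the red and grey bars are close in each pair, for example 28.3% and 29.2% for lower as deposited.

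**Figure D2:**
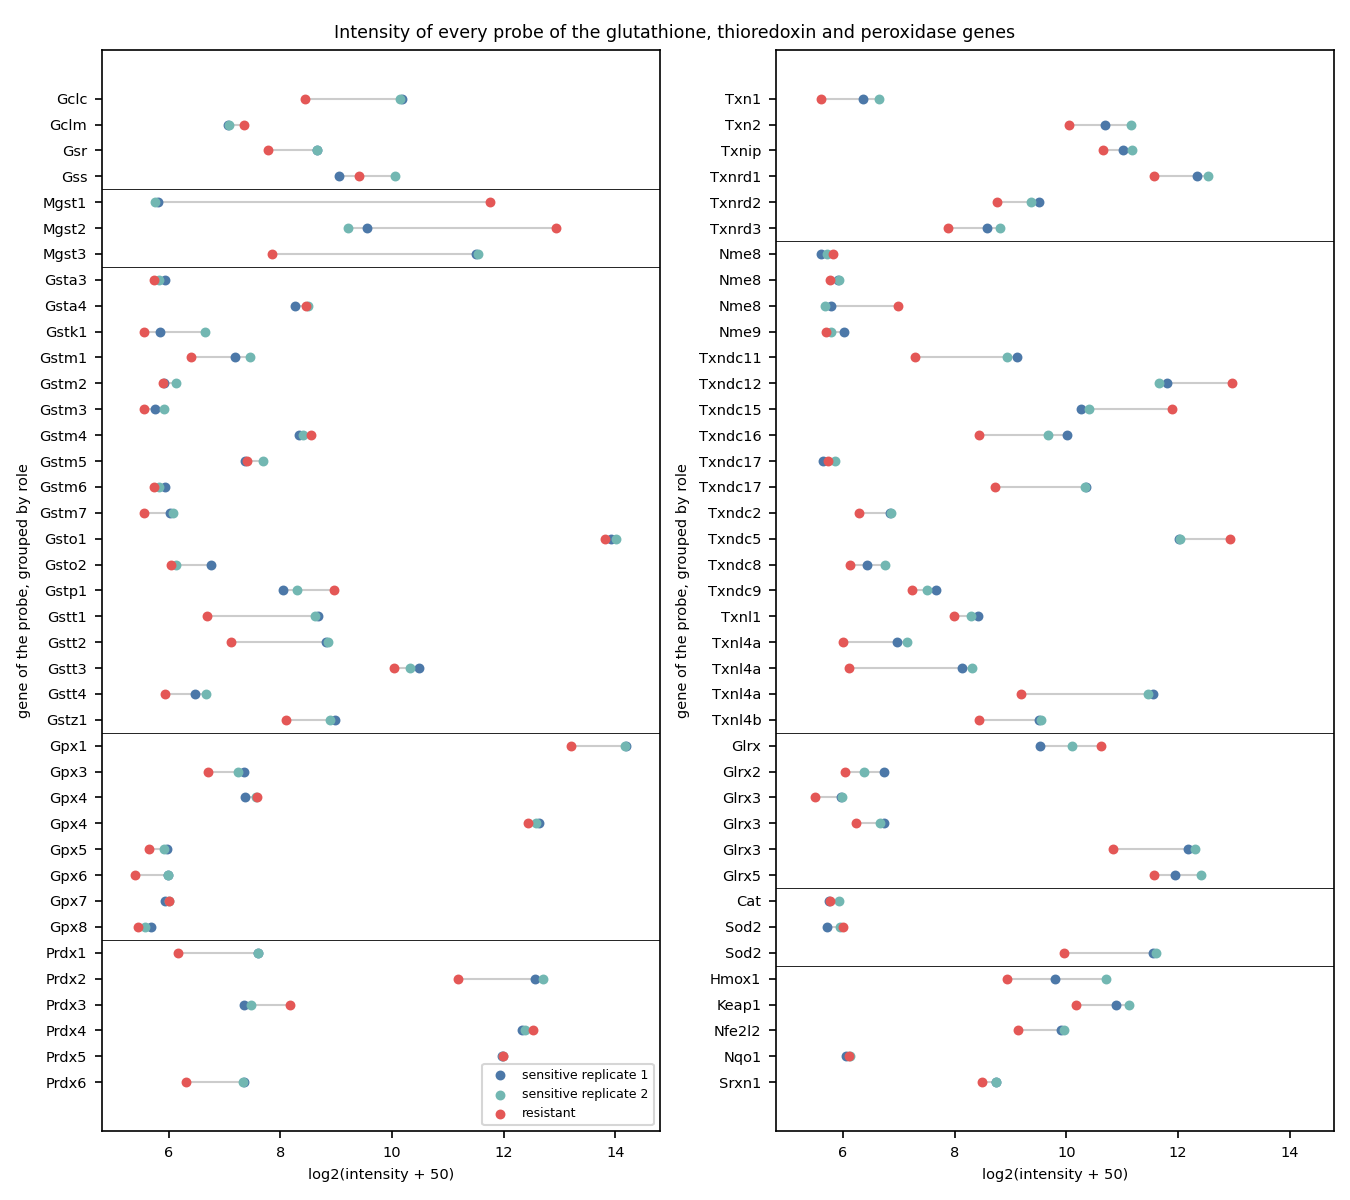
Intensity of each of the 78 member probes on the log2(intensity + 50) axis, 1 row per probe and 1 point per array, with lines between roles. The resistant point lies far to the right of both sensitive points for Mgst1 and Mgst2 and far to the left for Mgst3, and the 2 sensitive points mostly lie close together.

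The membrane-bound transferases belong to the MAPEG family. MGST1 sits in the endoplasmic reticulum and outer mitochondrial membrane and works as a transferase and a lipid peroxidase, and MGST2 and MGST3 also act on leukotriene and lipid peroxide substrates. Mgst1 read 6.21 and 3.96 units in B117P and 3413 in B117HS. It was near 0 on both sensitive arrays and clearly measured on the resistant one. The log2 values differed by 5.97 (SE 0.28, limma adjusted p = 1.60e-09), or by 6.84 after scaling. No fold is given against readings this low, and no flag for failed spots was used here. Mgst2 read 697 and 545 units in B117P, 621 ± 108 (SD, n = 2), and 7823 in B117HS. That is a 12.6-fold higher intensity, with a log2 value that was higher by 3.56 (SE 0.23, limma adjusted p = 4.35e-08) and 4.44 after scaling. Mgst3 went the other way, with 2835 and 2941 units on the sensitive arrays, 2888 ± 75.1 (SD, n = 2), and 180 on the resistant array. Its intensity was 16-fold lower, with a change in log2 of -3.67 (SE 0.22, limma adjusted p = 2.27e-08) and -2.94 after scaling. None of the 3 genes had overlapping groups, and each differed by far more than the sensitive arrays did from each other. Lack of overlap alone was common, since the resistant array was below both sensitive arrays for 67.1% of all probes and above both for 20.9%. All 3 calls also held after quantile normalization (log2 differences of 6.27, 3.89 and -3.11) and after centring on the medians. With values floored at 50 and no offset, the Mgst3 probe was the one member probe that kept its call. Mgst1 and Mgst2 then differed by 6.09 and 3.67 and lost their calls on the adjusted p.

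**Figure D3:**
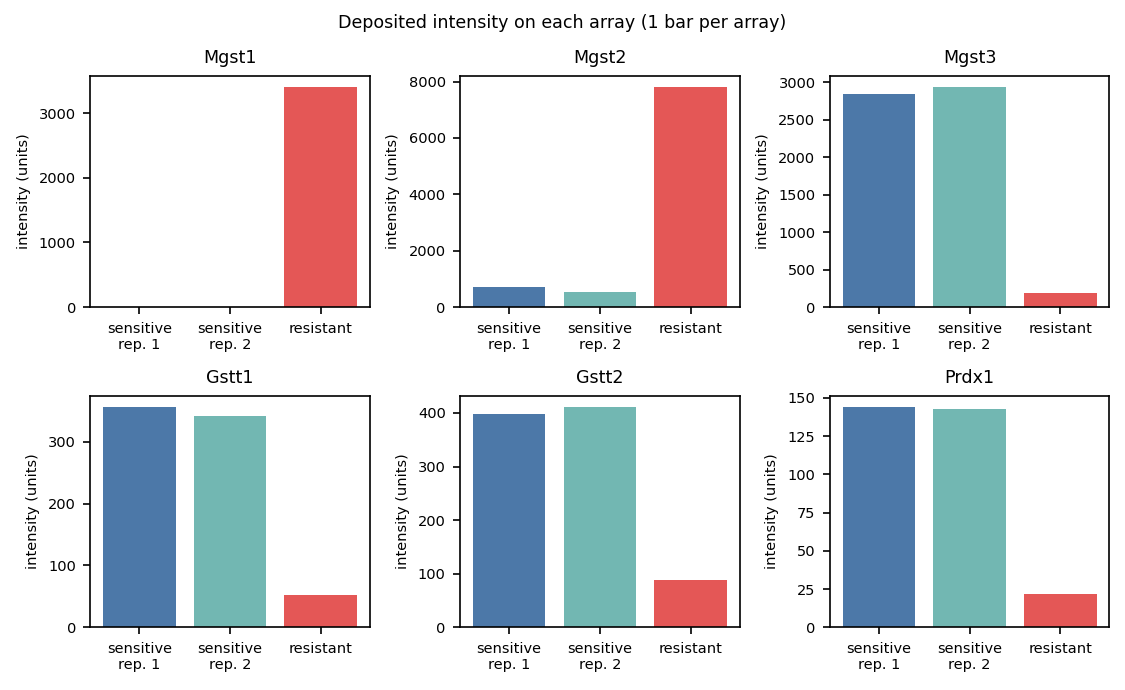
Deposited intensity (linear axis from 0) on each array for Mgst1, Mgst2, Mgst3, Gstt1, Gstt2 and Prdx1, 1 bar per array with its own axis in each panel. The resistant bar is the tall one for Mgst1 and Mgst2 and the short one for the other 4 genes; the sensitive bars of Mgst1, at 6.21 and 3.96 units, are too low to see.

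The 250 bases before each annotated start of these genes are shown because the 3 family members moved in opposite directions; sequences are from RefSeq on GRCm38.p6, written along the gene's strand. Capitals mark the core of the antioxidant response element, TGACNNNGC, searched on both strands (on the other strand it reads GCNNNGTCA). Mgst1 has 2 annotated starts in this table, chr6:138140277-138140526 and chr6:138141337-138141586 (plus strand). Mgst2 is at chr3:51660929-51661178 (plus strand) and Mgst3 at chr1:167393842-167394091 (minus strand).
Mgst1, first start: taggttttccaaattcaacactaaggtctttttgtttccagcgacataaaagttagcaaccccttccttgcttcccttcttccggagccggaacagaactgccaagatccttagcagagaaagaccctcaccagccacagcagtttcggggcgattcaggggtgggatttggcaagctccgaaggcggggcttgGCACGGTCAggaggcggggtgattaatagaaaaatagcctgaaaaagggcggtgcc
Mgst1, second start: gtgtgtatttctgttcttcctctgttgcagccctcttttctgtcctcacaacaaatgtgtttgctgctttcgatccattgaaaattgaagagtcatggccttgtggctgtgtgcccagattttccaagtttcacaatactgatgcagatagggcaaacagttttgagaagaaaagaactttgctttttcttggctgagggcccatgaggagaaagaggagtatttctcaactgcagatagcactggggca
Mgst2: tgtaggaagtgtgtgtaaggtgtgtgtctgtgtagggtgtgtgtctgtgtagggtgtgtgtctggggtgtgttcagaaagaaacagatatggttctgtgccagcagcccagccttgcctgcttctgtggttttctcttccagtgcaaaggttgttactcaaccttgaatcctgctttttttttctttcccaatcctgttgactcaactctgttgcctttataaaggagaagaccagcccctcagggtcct
Mgst3: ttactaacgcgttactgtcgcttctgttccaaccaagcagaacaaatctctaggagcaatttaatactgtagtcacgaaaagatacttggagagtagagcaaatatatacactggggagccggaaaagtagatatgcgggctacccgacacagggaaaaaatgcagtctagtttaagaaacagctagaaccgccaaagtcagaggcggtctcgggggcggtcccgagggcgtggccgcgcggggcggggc
The core occurred once, 56 bases before the first start of Mgst1, and these letters were not found in the windows of Mgst2 and Mgst3. Windows of 300 bases, which also take in 50 bases after the start, were at hand for 61 of the 69 member genes. The core was in a window of 13 of these 61 genes (21.3%), against 14% of 27025 genes. A match is a description of the letters and shows no binding.

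Of 18 probes for 18 soluble transferase genes, 2 fell, none was called higher as deposited in limma (9 of the 18 had an unadjusted p under 0.05), and 16 were not called as deposited. Over all probes 6.37% fell and 4.36% were called higher as deposited. Among those with a mean of at least 50 units the shares were 11.8% and 7.66%. The 2 transferase genes that fell belong to the theta class, which handles small halogenated substrates and peroxides. Gstt1 read 357 and 342 units in B117P and 52.9 in B117HS, a 6.60-fold lower intensity (difference in log2 -1.955, SE 0.27, limma adjusted p = 5.60e-05; -1.44 after scaling). Gstt2 read 399 and 412 against 88.7 (difference in log2 -1.71, SE 0.26, limma adjusted p = 1.38e-04; -1.09 after scaling). Both resistant values lay far below a pair of close sensitive values, but both calls were lost after quantile normalization. Their class relative Gstt3 read 1372, 1236 and 1003 units and was not called, and Gstt4 read 38.5, 51.4 and 10.9. Gstp1, the pi-class enzyme often studied in drug-resistant tumours, read 215 and 262 in B117P and 445 in B117HS. Its difference was 0.78 as deposited, short of a call, and 1.59 after scaling, where it was called higher. The omega-class gene Gsto1 was bright everywhere at 15386, 16423 and 14367 units. Among the mu-class genes, Gstm1 read 95.7, 125 and 34.2 units, without a call (difference in log2 -0.92), while Gstm4 (272, 289 and 322) and Gstm5 (114, 156 and 118) differed by 0.17 and -0.13. The alpha-class gene Gsta4 read 258, 310 and 300 units, with the resistant array inside the sensitive range. Gstz1, which also serves tyrosine breakdown, read 453, 425 and 224 (difference in log2 -0.84, and -0.08 after scaling). Gsta3, Gstm2, Gstm3, Gstm6 and Gstm7 were below 20 units on every array, so that little can be read from them. The remaining soluble genes, Gstk1 (7.45, 50.1 and -3.11) and Gsto2 (58.4, 19.8 and 15.6), differed most between the sensitive arrays themselves. Genes within the mu and theta classes are close paralogs, and cross-hybridisation between their probes was not tested.

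In glutathione synthesis the catalytic subunit gene Gclc was lower as deposited and after centring on the medians but not after scaling or quantile normalization. Its modifier Gclm was not called. Gclc read 1104 and 1083 units in B117P and 296 in B117HS. The resistant value was well clear of the sensitive pair (difference in log2 -1.73, SE 0.24, limma adjusted p = 4.85e-05), and after scaling the difference was -0.94, short of the size asked. Gclm, which makes the ligase more efficient, read 83.2, 85.7 and 112 (difference in log2 0.27, and 0.93 after scaling). Gss read 477 and 1012 in B117P and 632 in B117HS, inside the sensitive range. Gsr read 353, 355 and 170 (difference in log2 -0.88, and -0.16 after scaling) and was not called.

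Of the 6 peroxiredoxin genes Prdx1 fell, Prdx2 and Prdx6 were called lower as deposited only, Prdx3 and Prdx4 were called higher after scaling only, and Prdx5 was not called. These enzymes reduce hydrogen peroxide through a reactive cysteine, in the cytosol (Prdx1, Prdx2, Prdx6), mitochondria (Prdx3, Prdx5) or endoplasmic reticulum (Prdx4). Among all probes with a mean of at least 50 units, 29.2% were called lower as deposited and 11.8% on both scales. After scaling 16.5% of them were called higher. Prdx1 fell from 144 and 142 units to 21.8 (difference in log2 -1.43, SE 0.28, limma adjusted p = 0.00101; -1.10 after scaling), though its call was lost after quantile normalization, after centring and with an offset of 100. Prdx2 read 5982 and 6645 against 2265 (difference in log2 -1.46, -0.59 after scaling), and was called lower as deposited only. The same held for Prdx6, with 113, 111 and 29.6 units (-1.02, and -0.63 after scaling). Prdx3 stood higher on the resistant array, with 113 and 128 against 238 units. It was called only after scaling (0.76 as deposited, 1.52 scaled). Prdx4 read 5054, 5248 and 5850 (0.18 as deposited, 1.06 and called higher after scaling). Prdx5 read 3958, 3993 and 4004, a log2 difference of 0.01, and 0.88 after scaling, with no call on either scale. As deposited, the resistant array was below both sensitive arrays for 3 of the 6 genes, as it was for 67.1% of all probes, and above both for the other 3, as for 20.9% of all probes, of which Prdx4 and Prdx5 lay above by no more than the differences just given. Srxn1, the sulfiredoxin that repairs over-oxidised peroxiredoxins, read 380, 377 and 310 units and was not called.

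None of the 8 probes for 7 glutathione peroxidase genes was called by limma on either scale, with 3 at an unadjusted p under 0.05 and 2 at an adjusted p under 0.05 as deposited. Gpx1, the abundant cytosolic selenoenzyme, read 18620 and 18410 in B117P and 9357 in B117HS. It stood just short of the size asked (difference in log2 -0.98, SE 0.19, limma adjusted p = 9.88e-04), and after scaling the difference was -0.10. Gpx4, the peroxidase that reduces lipid hydroperoxides in membranes, read 6285, 6082 and 5460 on its brighter probe and 114, 138 and 142 on the other. Its differences were -0.18 and 0.12, and 0.70 and 0.82 after scaling. The secreted form Gpx3 read 112, 102 and 54.4 units. Gpx5, Gpx6, Gpx7 and Gpx8 were at or below 14.5 units on every array.

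None of the 6 genes of the core thioredoxin system was called by limma on either scale, though 5 of the 6 had an adjusted and an unadjusted p under 0.05 as deposited. The resistant array read below both sensitive arrays for all 6, as it did for 67.1% of all probes. The 6 differences ran from -0.91 to -0.45, and their median of -0.84 lay close to the -0.69 of all probes with a mean of at least 50 units. After scaling they ran from -0.94 for Txn1 to 0.41 for Txnip, with a median of -0.017 beside 0.013 for those probes. Txnrd1, the cytosolic reductase, read 5167 and 5887 units in B117P and 3009 in B117HS (difference in log2 -0.86, and 0.006 after scaling). The mitochondrial reductase gene Txnrd2 read 680, 607 and 383, and Txnrd3, known mainly from testis, 333, 402 and 185. Mitochondrial thioredoxin, Txn2, read 1613, 2234 and 1003 (-0.89, and -0.04 after scaling). The single probe of cytosolic thioredoxin, Txn1, was dim at 32.3, 50.1 and -1.56 units, so its level was hardly measured (-0.91, and -0.94 after scaling). Txnip, the inhibitor that binds thioredoxin, read 2028, 2261 and 1559 (-0.45, and 0.41 after scaling).

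**Figure D4:**
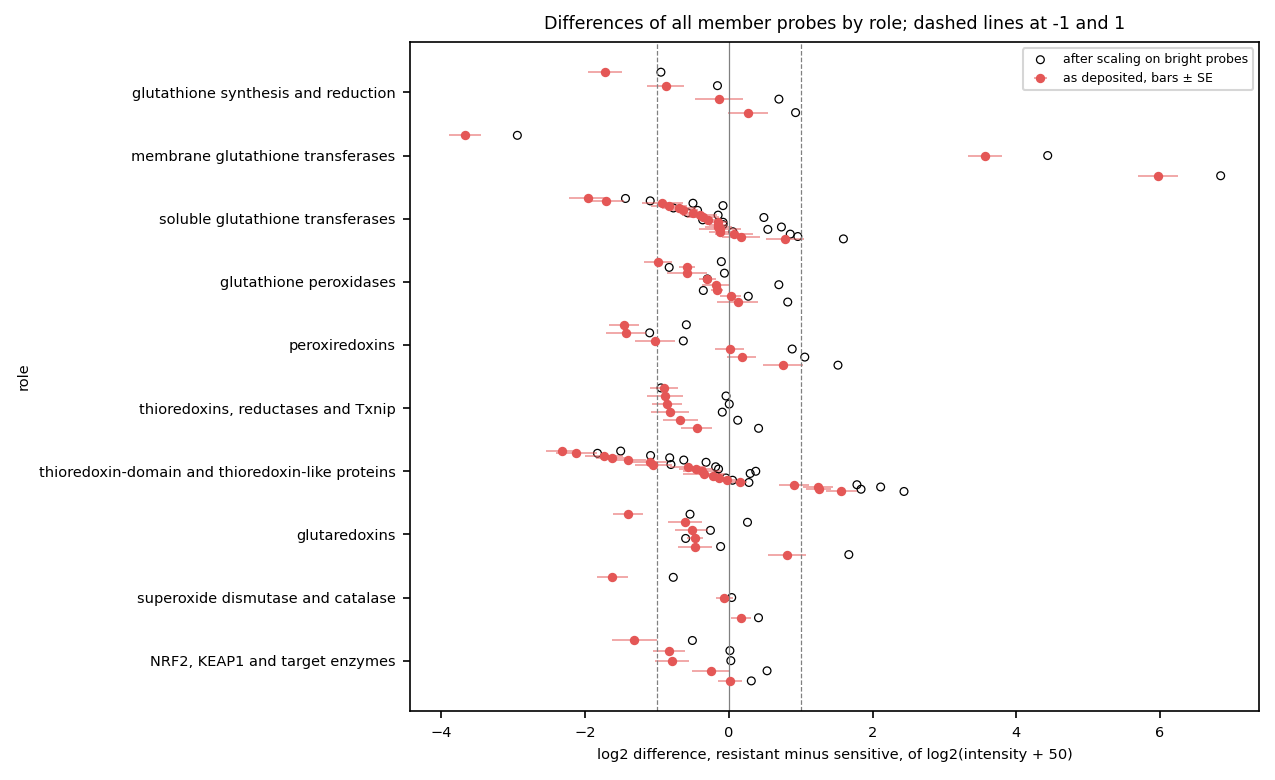
Log2 difference, resistant minus sensitive, of every member probe by role, as deposited (filled points, bars ± SE from limma) and after scaling on bright probes (open points), with dashed lines at -1 and 1. The membrane transferases lie outside the dashed lines on both scales, while the core thioredoxin points sit between -0.91 and -0.45 as deposited and between -0.94 (Txn1) and 0.41 (Txnip) after scaling.

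Proteins with a thioredoxin domain gave 3 probes that rose and 2 that fell, of 19 probes for 14 genes. Over all probes 4.36% rose and 6.37% fell, and 7.64% and 11.8% of those with a mean of at least 50 units. Txndc15, a membrane protein with a thioredoxin domain, rose from 1185 and 1301 units to 3777, a 3.04-fold higher intensity (difference in log2 1.57, SE 0.22, limma adjusted p = 6.02e-05; 2.44 after scaling). Txndc12, an oxidoreductase of the endoplasmic reticulum, rose from 3509 and 3193 to 7960 (difference in log2 1.24, SE 0.21, limma adjusted p = 2.72e-04; 2.11 after scaling), a call lost after quantile normalization. The disulfide isomerase gene Txndc5, of the same compartment, read 4104, 4135 and 7770. Both sensitive values lay close together and far below the resistant one, yet the difference of 0.91 fell short of a call as deposited and was called after scaling (1.78). One probe of Nme8, a gene of sperm flagella listed on the platform as Txndc3, went from 4.97 and 1.32 to 76.2, while its other 2 probes stayed at or below 10.6 units on every array. Its call was lost with an offset of 100 and when the gene's probes were averaged.

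Txnl4a encodes a small spliceosome protein with a thioredoxin fold and no known redox role. Its brightest probe fell from 2971 and 2775 units to 532, a 5.40-fold lower intensity (difference in log2 -2.33, SE 0.22, limma adjusted p = 1.59e-06; -1.50 after scaling). The second probe fell from 231 and 269 to 18.7 (difference in log2 -2.12). The third read 74.5, 91.0 and 14 and missed a call by its difference of -0.96 from sensitive replicate 1. All 3 probes of the gene were thus lower on the resistant array. Its relative Txnl4b was lower as deposited only, with 681, 699 and 296 units (-1.10, and -0.32 after scaling). Also lower as deposited only were Txndc11 (502, 441 and 106 units), whose product binds the DUOX oxidases, Txndc16 (980, 766 and 296) and the brighter probe of Txndc17 (1262, 1247 and 373), with differences of -1.74, -1.41 and -1.62. After scaling Txndc11 still differed by -1.09 on average but by less than 1 from one of the sensitive arrays. Txnl1 (292, 264 and 204), Txndc9 (153, 132 and 101), Txndc2, Txndc8 and Nme9 were not called.

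Glutaredoxins use glutathione to reduce disulfides, and Glrx3 and Glrx5 also carry iron-sulfur clusters. Glrx, the cytosolic enzyme, read 690 and 1049 units in B117P and 1531 in B117HS. The resistant value was the highest, but the sensitive arrays differed, and the log2 difference of 0.81 was not called as deposited (1.67 and called after scaling). The brightest of 3 Glrx3 probes read 4593, 4983 and 1780 and was lower as deposited only (-1.40, and -0.54 after scaling), while the other 2 stayed at or below 55.9 units. Glrx5 read 3910, 5379 and 2990 and Glrx2 read 55.9, 33.0 and 15.6, without a call.

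Of the enzymes that handle superoxide and peroxide directly, mitochondrial Sod2 was lower as deposited only on its brighter probe, from 2953 and 3056 units to 944 (difference in log2 -1.62, SE 0.21, limma adjusted p = 3.86e-05; -0.77 after scaling). Its other probe read at most 14 units. Cat, catalase, read 3.73, 10.6 and 4.67 on its only probe, so that its transcript was not measurable on these arrays.

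Nfe2l2, Keap1 and the target genes Hmox1, Nqo1 and Srxn1 held no call by limma on either scale. Of these 5 probes, 3 had an unadjusted and an adjusted p under 0.05 as deposited. The statement covers these genes only. Gclc and Prdx1 are given with their own groups above, and further target genes with the pathway lists below. Nfe2l2 read 909 and 948 units in B117P and 515 in B117HS (difference in log2 -0.79, and 0.028 after scaling). Keap1 read 1845, 2172 and 1100 (-0.84, and 0.015 after scaling). Hmox1, haem oxygenase 1, read 841 and 1628 in B117P and 440 in B117HS. The resistant value was below both, but by -0.86 from replicate 1 and -1.77 from replicate 2, so the size rule was met against replicate 2 alone. Nqo1, a quinone reductase, read 16.2, 19.8 and 18.7 units and was hardly measured.

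Response element cores are shown upstream of 4 of the 13 members that have one, namely Gclm, Prdx1, Txnrd1 and Nfe2l2. Of the 4, only Prdx1 was called on both scales. The stretches are from RefSeq on GRCm38.p6, with the core in capitals. They lie at chr3:122245407-122245447 (plus strand), chr4:116685450-116685490 (plus strand), chr10:82859098-82859138 (plus strand) and chr2:75704879-75704913 (minus strand).
Gclm: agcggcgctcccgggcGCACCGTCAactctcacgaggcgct
Prdx1: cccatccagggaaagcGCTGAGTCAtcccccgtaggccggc
Txnrd1: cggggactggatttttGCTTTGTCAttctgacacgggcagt
Nfe2l2: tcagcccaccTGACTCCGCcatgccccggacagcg
The core of Prdx1 overlaps an AP-1 site, TGACTCA, on the other strand. The letters TGACTCA also stand, as written, in the Mgst2 sequence shown above. Of these genes Prdx1 fell, Txnrd1 and Nfe2l2 were not called, and Gclm stood at 112 units against 83.2 and 85.7, also without a call. Mgst1, which carries a core before its first start, rose. Srxn1 has its core 29 bases into the transcribed side, and it was not called. The other member genes with a core, Gsta3, Gstm5, Gstm7, Nme9, Txndc2, Txndc5 and Txndc11, neither rose nor fell. Among member genes with a window, a core was found for 1 of 5 that rose and 1 of 3 that fell. No window was at hand for Gclc, Gsr and Hmox1.

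Genes that feed or use these systems were read from 10 lists of pathway genes, 126 probes in all, and the balance of their calls depended on the scale. As deposited 6 of the 126 were called higher and 20 lower (4.76% and 15.9%, against 4.36% and 15.5% of all probes). After scaling 27 were called higher and 6 lower (21.4% and 4.76%, against 9.42% and 6.57%). Over the 92 list probes with a mean of at least 50 units, the scaled shares were 25% and 6.52%, beside 16.5% and 11.8% of all probes that bright. In cysteine and methionine supply, 1 of 13 probes for 11 genes was called higher as deposited and none lower, with a median difference of -0.09 beside -0.27 for all probes. After scaling 5 of the 13 were called higher and none lower, with a median of 0.59 beside -0.015. The gene that rose was Slc7a11, which imports cystine for glutathione synthesis. It read 317 and 425 units in B117P, 371 ± 76.3 (SD, n = 2), and 5070 in B117HS (difference in log2 3.62, SE 0.25, limma adjusted p = 6.27e-08; 4.49 after scaling). Slc3a2, its partner chain, read 12429, 13979 and 25671 on the brighter probe (0.96, short of a call, and 1.84 and called after scaling). Cth, which makes cysteine from cystathionine, read 2901, 3358 and 5780 and was likewise called only after scaling (0.88 and 1.75).

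In glutathione breakdown and export, 1 of 17 probes rose and 1 fell, with 1 called higher and 2 lower as deposited and 2 higher and 1 lower after scaling. Over all probes 4.36% were called higher and 15.5% lower as deposited, and 9.42% and 6.57% after scaling. The pump gene Abcc3 went from 12.4 and 9.23 units to 80.9, and Abcc2 from 181 and 230 to 34.2 (log2 differences 1.11 and -1.59), while Ggt6 was lower as deposited only (-1.18). Chac1, an intracellular glutathione-degrading enzyme, read 1363, 1609 and 1503 without a call. For NADPH supply, 4 of 13 probes for 12 genes were called lower as deposited and none higher, beside 29.2% lower among all probes with a mean of at least 50 units. After scaling 3 were called higher and 1 lower, and the median went from -0.20 to 0.56. The 1 probe lower on both scales was that of Idh2. Idh2, the mitochondrial isocitrate dehydrogenase, fell from 10770 and 11137 to 2481 (difference in log2 -2.12, SE 0.20, limma adjusted p = 1.58e-06; -1.25 after scaling). The pentose phosphate enzyme gene Pgls (-1.91) and the NAD kinase gene Nadk (-1.59) were lower as deposited only. Idh1, the cytosolic counterpart of Idh2, read 1818, 2668 and 3872, above both sensitive arrays (0.80, and 1.67 and called after scaling).

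Among NRF2 partners and regulators, 3 of 16 probes for 14 genes were lower as deposited and none higher, against 2 higher and 1 lower after scaling, and 1 fell. Of all probes with a mean of at least 50 units, 7.66% were called higher and 29.2% lower as deposited. After scaling those shares were 16.5% and 11.8%. Bach2, a repressor related to Bach1, fell from 235 and 138 units to 18.7 (difference in log2 -1.75, -1.46 after scaling). Bach1, which competes with NRF2 at response elements, read 226, 241 and 68.4, and Cul3, the ubiquitin ligase scaffold that works with KEAP1, 6940, 9017 and 2469. Both were lower as deposited only. Of 17 probes for 16 further NRF2 target genes, 1 rose, again Slc7a11, and 2 were lower as deposited only, the ferritin gene Fth1 (27245, 30655 and 8220) and the biliverdin reductase gene Blvrb (2361, 2594 and 706). After scaling 5 of the 17 were called higher and none lower, beside the 16.5% and 11.8% given above. The list median went from -0.10 to 0.69, and that of all probes with a mean of at least 50 units from -0.69 to 0.013. In selenoprotein synthesis, which serves the glutathione peroxidases and thioredoxin reductases, 1 of 11 probes rose and 1 fell, with 1 called higher and 3 lower as deposited and 2 higher and 1 lower after scaling. Selenop, a secreted selenium carrier, rose from 3106 and 3259 to 12175 (difference in log2 1.92, SE 0.20, limma adjusted p = 4.86e-06), and Trit1, a tRNA-modifying enzyme gene, fell from 794 and 675 to 76.2 (-2.63). Both probes of the elongation factor gene Eefsec were lower as deposited only (-1.39 and -1.67).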

How the data were processed

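Per the labels' protocols, amplified antisense RNA of each sample carried Cy5 and was read on a 1-colour array. The authors deposited 1 table of linear intensity per probe and array, with values below 0. No source used here gives the scanner, the software or the scaling. Groups came from the sample titles. Of the 26423 probes, 20377 had 1 gene symbol in the platform's table, 0 several and 6046 none. Of the 69 member symbols, 67 matched a current gene of the GRCm38.p6 annotation and 2 an older name.

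The design assumed an offset of 50 for intensities. limma 3.58.1 in R 4.3.3 (lmFit, eBayes with a variance trend, prior of 13.08 and 1 residual degree of freedom) was fitted to log2(intensity + 50) of every probe, resistant minus sensitive, and tested on simulated data. Values at or below 10 units were called near 0. Named were all probes called on both scales, 26 well-known members and, from each pathway list, up to 3 called and 2 uncalled genes. The members, lists and offset were chosen with earlier results of these data known. Alternatives were other scalings, offsets of 16 and 100, a floor of 50, filters on dim probes, 1 value per gene, other priors and thresholds, and leaving out each sensitive array. Python 3.11.15 with pandas 2.3.3 made the tables. The number of arrays limits the precision.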

Additional observations from a re-analysis of the deposited data

How the results depend on the processing

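Over the alternatives run, 7 member probes of 6 genes (Mgst1, Mgst2, Mgst3, Txndc15, Nme8 and 2 probes of Txnl4a) kept their call under each of the 4 scalings. These were 4 higher and 3 lower of the 78 member probes. Of all 26423 probes, 1686 kept theirs, 971 higher and 715 lower. No member probe called as deposited changed direction. The causes of the changes below were not tested. As deposited, 1153 probes were called higher and 4104 lower, among them 5 and 15 member probes, and the median member difference was -0.45. After scaling on bright probes the counts were 2489 and 1737 over all probes and 10 and 6 among members, with a median of -0.070. After centring they were 2188 and 1514 over all probes and 9 and 6 among members, and the median turned to 0.17. Quantile normalization left 830 lower over all probes and 3 among members, with a median of -0.072. With values floored at 50 and no offset, 120 probes were higher and 25 lower, 0 and 1 among members (Mgst3 was not among those lost), with a median of -0.125. An offset of 16 gave 6523 lower over all probes and a median of -0.75, and an offset of 100 a median of -0.29. Asking for a difference of 0.6 gave 7146 lower over all probes, 8 higher and 28 lower among members. Asking for 2 gave 421 and 864 over all probes and 2 and 3 among members. Leaving out the dimmest 25% of probes moved the median to -0.57, and keeping those with a mean of at least 50, chosen after the data were seen, to -0.68. Without either sensitive array, where size alone could be asked, 1216 to 1380 probes were higher and 4538 to 5476 lower, 5 to 6 and 15 to 21 among members, with medians from -0.46 to -0.43. No paired analysis was possible because the resistant group has a single array with no replicate number.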

Other observations

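The NADPH oxidase, which makes superoxide in phagocytes, had 1 of 8 probes that rose and 1 that fell, with a median difference of -0.18. Hvcn1, the proton channel that supports the oxidase, rose from 260 and 313 units to 3138 (log2 difference 3.25, SE 0.24, limma adjusted p = 1.67e-07). Ncf4, a cytosolic subunit, fell from 2220 and 2762 to 530 (-2.12), and the subunit gene Ncf1 was lower as deposited only (4285, 4642 and 1725). None of the 4 haem peroxidase probes was called by limma, with 2 at an unadjusted p under 0.05, and Mpo differed by 0.01. In a list of sulphoxide repair and other redox enzymes, 2 of 22 probes rose and 1 fell. As deposited 2 were called higher and 2 lower, and after scaling 7 higher and 1 lower, with medians of -0.017 and 0.44. Of all probes with a mean of at least 50 units, 7.66% were called higher and 29.2% lower as deposited. After scaling those shares were 16.5% and 11.8%. Ero1a, the oxidase of the endoplasmic reticulum, rose from 215 and 330 to 3763 (log2 difference 3.59), and Msrb2, a mitochondrial methionine sulphoxide reductase gene, fell from 1183 and 1409 to 210 (-2.37). The p53 target gene Sesn1 was lower as deposited only (-1.89). One probe of Aifm2, a suppressor of ferroptosis, went from 2.48 and 5.28 to 109, while its other 3 probes differed by -0.13 to 0.03. In haem and iron handling, 5 of 17 probes were lower as deposited and none higher, while after scaling 3 were called higher, Tfrc among them, and none lower. These counts stand beside the 29.2% lower as deposited and 16.5% higher after scaling given above. None of the 17 was called in the same direction on both scales by limma, with 11 at an unadjusted p under 0.05 as deposited. The 2 probes of the iron transporter gene Slc11a2 disagreed, at -1.19 and 1.14.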
